A study of Mus musculus with 6 samples.

Results

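Non-ELR CXC chemokines are CXC chemokines that lack a glutamate-leucine-arginine run ahead of their paired cysteines, and they mainly attract lymphocytes and other mononuclear cells. The set described here held Cxcl9, Cxcl10, Cxcl11, Cxcl12, Cxcl13, Cxcl14 and Cxcl16, the CX3C chemokine gene Cx3cl1, and the genes of the CXCL12 receptors Cxcr4 and Ackr3. These 10 members were taken by gene symbol from a table of 78317 genes that leaves out spike-in rows. Each symbol stood on 1 row. Of the 10, 5 were abundant enough to test among 13372 tested genes, 2 rose, 1 fell and 2 did not pass the test, where 17.4% of all tested genes passed (8.94% higher, 8.44% lower; edgeR adjusted p under 0.05).

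The libraries came from MCEC, an immortalised line made from mouse cardiac endothelium. The genotype was Wildtype in the 3 control libraries and ShFat4, a short hairpin RNA against the giant cadherin gene Fat4, in the 3 knockdown libraries. Both groups share the line, and no treatment or time point is named in the labels. The labels do not say whether the controls carried a hairpin, whether the knockdown line is a clone, or whether replicates were separate cultures. The p-values therefore measure spread among 6 libraries, and that spread may be technical.

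CXCL9, CXCL10 and CXCL11 are induced by interferons and NF-kappaB and draw activated T cells and natural killer cells through CXCR3. CXCL12 is made steadily by stromal and endothelial cells, signals through CXCR4 and is cleared by the scavenging receptor ACKR3. CXCL16 and CX3CL1 are made as membrane-bound proteins on a mucin stalk, hold cells that carry CXCR6 or CX3CR1, and become soluble attractants when ADAM10 or ADAM17 cuts them.

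Total counts ran from 10305810 to 11870091 per library. The targeted gene Fat4 stood at 0.97, 1.94 and 2.56 CPM (counts scaled to library size with TMM factors) in the control libraries and at 0.76, 0.98 and 0.82 CPM after knockdown, with control replicate 1 inside the knockdown range (log2 fold change -1.17, edgeR adjusted p = 0.033). Leaving out any library but control replicate 1 lost that call, with adjusted p from 0.0809 to 0.205. On all 6 libraries, limma-voom gave Fat4 an adjusted p of 0.0674 and DESeq2 gave it none. The genes called were higher in 51.4% of cases. With library-size scaling that share was 32.9%. Of 12 endothelial marker genes, Tie1, Cldn5, Vwf, Erg and Emcn had no count in any library and Cdh5 had 2 counts in all, so the defining endothelial markers were absent or near absent. The summed level of the 12 was 83.7 to 92.6 CPM in control and 77.1 to 84.0 CPM in knockdown libraries, carried mainly by Cd34 and Eng. In control libraries, 10 mesothelial marker genes summed to 1058 to 1149 CPM. The sum of 10 fibroblast marker genes was 2064 to 2149 CPM, mostly Col1a1. Cell identity was not tested. Of 15 leukocyte marker genes, 6 had no count, among them Itgam, Itgax and Adgre1, and Ptprc had 2 counts in all. Cd68 had 238 and Cd14 254 counts in all, and neither was called. The summed level was 6.98 to 8.64 CPM in control and 6.91 to 9.30 CPM in knockdown libraries, carried mainly by Cd68 and Cd14.

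Cxcl10, whose product recruits CXCR3-bearing T cells, rose in the knockdown. The gene (ENSMUSG00000034855) lies on the minus strand of GRCm39 chromosome 5, with exons from 92494497 to 92496748. Its counts were 18, 30 and 27 in control (replicates 1, 2, 3 here and throughout) and 53, 38 and 47 after knockdown. Its level was 1.75, 2.65 and 2.20 CPM in control and 4.73, 3.72 and 4.26 CPM in knockdown libraries. Every knockdown library lay above every control library. The fitted log2 fold change was 0.94 (95% interval 0.52 to 1.36), a 1.92-fold rise from 2.20 ± 0.45 to 4.24 ± 0.50 CPM (SD, n = 3, edgeR quasi-likelihood adjusted p = 0.00458), and it ranked 42nd from the highest of all tested genes. All 6 fits without a library called it, between 0.82 without control replicate 1 and 1.09 without control replicate 2.

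The neighbours of Cxcl10 in the same cluster were at or near 0 counts. Cxcl9, exons from 92469206 to 92475938, had 1 count, in knockdown replicate 3, and Cxcl11, exons from 92507403 to 92513344, had none in the 6 libraries. A count of 0 allows 3 counts, or 0.244 to 0.294 CPM in a single library and 0.0452 CPM over all 6, counting error only. Both genes are on the strand of Cxcl10 and encode ligands of the same receptor. Sdad1, the nearest tested gene outside the cluster, was at 48.6 and 51.2 CPM (log2 fold change 0.08, edgeR adjusted p = 0.557). Exons of Cxcl10 overlap those of Art3 on the other strand by 133 bases. Art3 had 0 to 4 counts per library, against 18 to 53 for Cxcl10.

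The starts of Cxcl10 and Cxcl9 are shown because one ligand was measurable and rose while its cluster neighbour was not. The lines give the 250 bases before each start, minus strand, 5′ to 3′, from the RefSeq table for GRCm38.p6, at chr5:92348890-92349139 for Cxcl10 and chr5:92328080-92328329 for Cxcl9. In Cxcl10, capitals mark the core of an interferon response element (GAAA, any pair of bases, GAAA) and then a pair of matches to the NF-kappaB consensus; the consensus was added to the search after the sequences had been seen.
Cxcl10: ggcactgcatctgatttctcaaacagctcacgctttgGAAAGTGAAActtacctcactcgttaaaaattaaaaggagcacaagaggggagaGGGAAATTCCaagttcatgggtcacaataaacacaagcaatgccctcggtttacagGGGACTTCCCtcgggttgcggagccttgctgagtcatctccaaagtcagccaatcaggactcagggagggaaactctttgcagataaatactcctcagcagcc
Cxcl9: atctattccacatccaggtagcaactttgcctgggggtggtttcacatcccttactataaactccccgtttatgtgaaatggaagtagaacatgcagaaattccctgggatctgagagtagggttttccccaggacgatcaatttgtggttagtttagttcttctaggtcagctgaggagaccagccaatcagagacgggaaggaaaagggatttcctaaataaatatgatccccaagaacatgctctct
Reading both strands over 300 bases, 250 before and 50 after the start, the interferon core began 213 bases before the Cxcl10 start and the NF-kappaB matches lay between it and the start, the farther one at 159 bases. Of all 32851 promoters in the table, 3.44% hold the interferon core and 4.51% the NF-kappaB consensus. The narrower NF-kappaB patterns searched first (GGG or GGA, any pair of bases, TTTCC) had no match in any of the 8 member windows. Cxcl10 also held the hypoxia letters GCGTG, as did Cxcl13, Cxcl14, Cxcr4 and Ackr3, and 32.4% of all promoters hold them. Neither the interferon core nor the consensus is in the Cxcl9 window, and of the 8 members with a promoter in the table Cxcl14 is the only other with the interferon core. The STAT letters TTCNNNGAA (N for any base), which 8.3% of all promoters hold, were in neither the Cxcl10 nor the Cxcl9 window. Among the 8 members only Cxcl14 held them. A missing match holds only for the letters searched, and the Cxcl9 line does hold gggatttcc, a run shorter than the NF-kappaB consensus. Factor binding was not measured, and these matches are letters only.

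Cxcl12, the ligand of CXCR4 and ACKR3 and the most abundant member by CPM, fell. The gene (ENSMUSG00000061353) lies on the plus strand of GRCm39 chromosome 6, with exons from 117145496 to 117158328. Counts were 136, 143 and 176 in control and 106, 90 and 97 in knockdown libraries, or 13.2, 12.6 and 14.3 against 9.46, 8.82 and 8.80 CPM. All knockdown libraries were below all control libraries. The log2 fold change was -0.57 (95% interval -0.79 to -0.35), from 13.4 ± 0.86 to 9.03 ± 0.38 CPM (SD, n = 3, edgeR adjusted p = 0.00232), and it was the 323rd lowest of all tested genes. Fits without a library gave -0.61 to -0.52 and all called it. In bulk RNA, fewer cells that make a transcript and less of it per cell cannot be told apart.

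The Cxcl12 start is shown because it differs in base make-up from that of Cxcl10. The line gives the 250 bases before it at chr6:117168285-117168534, plus strand, 5′ to 3′, RefSeq on GRCm38.p6, and capitals mark GC boxes, the letters GGGCGG on either strand, also added after the sequences had been seen.
Cxcl12: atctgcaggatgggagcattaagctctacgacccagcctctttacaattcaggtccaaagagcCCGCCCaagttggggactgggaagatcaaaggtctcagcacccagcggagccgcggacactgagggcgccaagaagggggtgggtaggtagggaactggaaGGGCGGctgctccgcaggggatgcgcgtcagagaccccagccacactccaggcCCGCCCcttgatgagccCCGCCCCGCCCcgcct
The 300-base window holds 5 GC boxes, some overlapping, and no match to the interferon core, the NF-kappaB consensus, the hypoxia letters ACGTG and GCGTG, or the TEAD letters GGAATG. GC boxes were also in the windows of Cx3cl1, Ackr3, Cxcl14 and Cxcr4, the last 2 with no count, so they do not set Cxcl12 apart. A share of 35.7% of all promoters hold a GC box and 14.7% the TEAD letters. GC content over the window was 64.7% for Cxcl12 and for Cx3cl1, 50.3% for Cxcl10 and 44.3% for Cxcl9, beside a median of 52.7% over all promoters. It was 62.7% for Cxcl14, 59.3% for Cxcr4, 54.0% for Ackr3 and 44.0% for Cxcl13. The TEAD letters were found in 1 of the 8 member windows, that of Cxcl13.

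**Figure D1:**
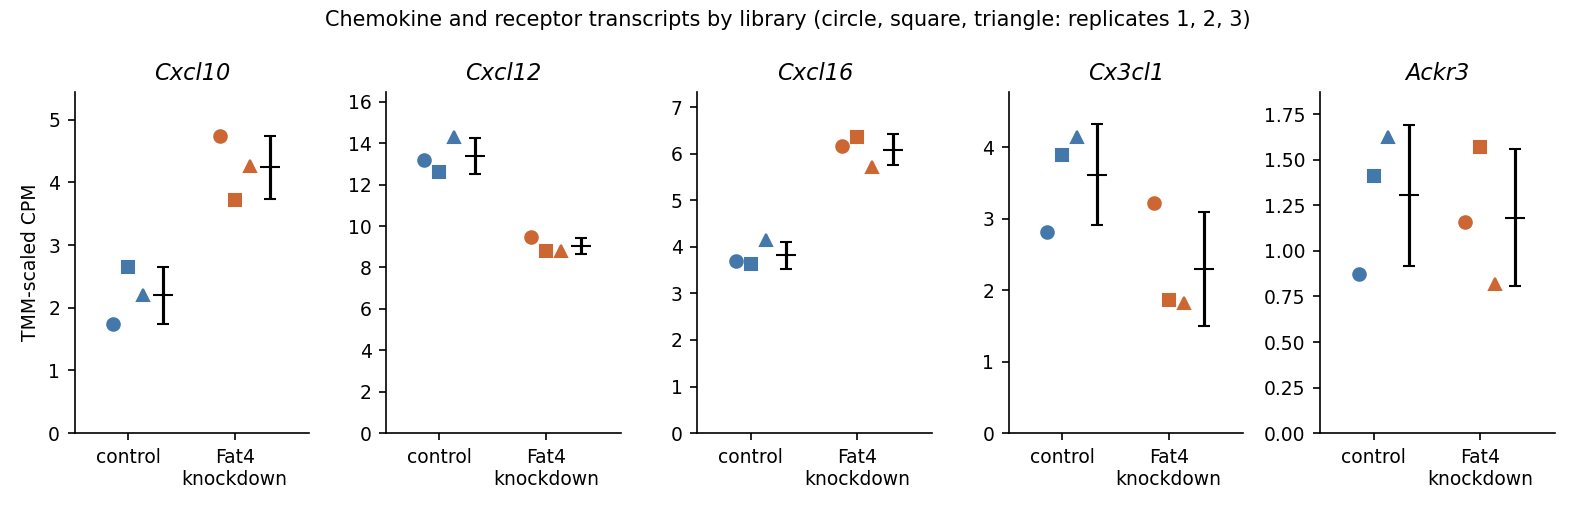
TMM-scaled CPM of the 5 tested members in each library; points are libraries, and black bars give the mean and SD of 3. The knockdown libraries lie above all controls for Cxcl10 and Cxcl16 and below all controls for Cxcl12, while the groups overlap for Cx3cl1 and Ackr3.

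Of the membrane-bound ligands, Cxcl16 rose. It (ENSMUSG00000018920, minus strand of GRCm39 chromosome 11, exons from 70344809 to 70350810) had 38, 41 and 51 counts in control and 69, 65 and 63 in knockdown libraries. Its level was 3.69, 3.62 and 4.15 CPM in control and 6.16, 6.37 and 5.72 CPM in knockdown libraries. The groups did not overlap, and the spread within each was small beside the gap. The log2 fold change was 0.66 (95% interval 0.35 to 0.97), a rise from 3.82 ± 0.29 to 6.08 ± 0.33 CPM (SD, n = 3, edgeR adjusted p = 0.00637), and DESeq2 gave an adjusted p of 0.0592. Fits without a library gave 0.62 to 0.73 and all called it.

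Cxcl16 shares 552 exon bases with Zmynd15 on the other strand, and the labels do not say whether counting used strand. Zmynd15 had 5 to 11 counts per library, against 38 to 69 for Cxcl16. Med11, which encodes a Mediator subunit and lies 256 bases from Cxcl16 on the other strand, was at 42.1 and 49.0 CPM, with a log2 fold change of 0.22 (edgeR adjusted p = 0.0314). Without a library, that call held only when control replicate 1 was the one left out. Pelp1, on the strand of Cxcl16, had a log2 fold change of -0.30 (edgeR adjusted p = 0.00674), which became -0.20 (edgeR adjusted p = 0.0646) once GC content and length were corrected for. Arrb2, 13155 bases from Cxcl16 on the other strand, was at 45.9 and 48.1 CPM (log2 fold change 0.07, edgeR adjusted p = 0.579). These neighbours were chosen by position.

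Cx3cl1 encodes fractalkine, the ligand of CX3CR1 on monocytes and cytotoxic lymphocytes, and it did not pass the test. The gene (ENSMUSG00000031778, plus strand of GRCm39 chromosome 8, exons from 95498637 to 95509055) had 29, 44 and 51 counts in control and 36, 19 and 20 in knockdown libraries. That is 2.82, 3.89 and 4.15 against 3.21, 1.86 and 1.81 CPM. Knockdown replicate 1 lay above control replicate 1, and the other 2 knockdown libraries lay below every control library. The log2 fold change was -0.66 (95% interval -1.16 to -0.16, edgeR adjusted p = 0.0658). Without control replicate 1 it was -0.79 (edgeR adjusted p = 0.0198) and without knockdown replicate 1 it was -0.99 (edgeR adjusted p = 0.0289). Over the other left-out libraries the adjusted p reached 0.223. Cx3cl1 shares 427 exon bases with 1700121C10Rik, a noncoding gene on the other strand, which had 2 to 12.5 counts per library.

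Cxcl13, the B cell attractant of lymphoid follicles (GRCm39 chromosome 5, plus strand, exons from 96104810 to 96108927), and Cxcl14, a ligand of epithelia and fibroblasts (chromosome 13, minus strand, exons from 56436456 to 56444364), had no count in any of the 6 libraries. The limit given above for Cxcl11 holds for both.

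The CXCL12 receptors differed in whether they were seen at all. Cxcr4, the signalling receptor (GRCm39 chromosome 1, minus strand, exons from 128515936 to 128520030), had no count in any of the 6 libraries. Ackr3, the scavenging receptor (ENSMUSG00000044337, plus strand of GRCm39 chromosome 1, exons from 90131702 to 90144473), had 9, 16 and 20 counts in control and 13, 16 and 9 in knockdown libraries. Its 0.87, 1.41 and 1.63 CPM in control and 1.16, 1.57 and 0.82 CPM in knockdown libraries overlapped over nearly their whole range. The log2 fold change was -0.18 with a 95% interval of -0.86 to 0.51 (edgeR adjusted p = 0.76), an interval that includes a fall of the size seen for Cxcl12. Without control replicate 3 it was 0.02, and without knockdown replicate 3 it was 0.03.

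Receptors of the other ligands were at or near 0. Cxcr3 and Cxcr6 had no count, Cxcr5 had 0 or 1 count per library, and Cx3cr1 had 3, 3 and 4 counts in control and 2, 1 and 4 in knockdown libraries. Of 10 receptor and scavenger genes outside the set, 6 had no count and 0 reached the level for a test. These libraries thus held transcripts of ligands and of a CXCL12 scavenger, and at most a few counts of the signalling receptors.

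**Figure D2:**
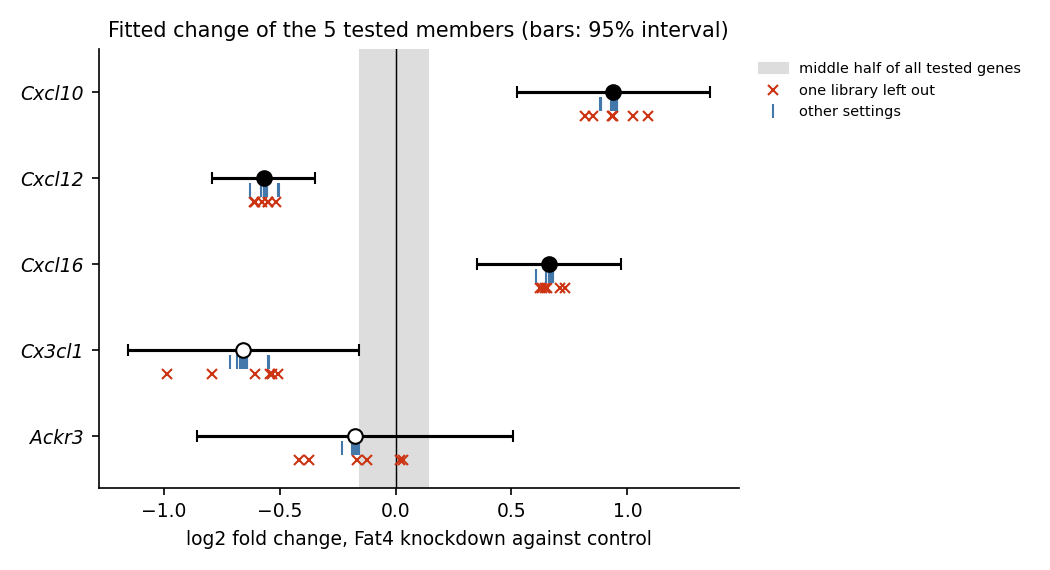
Fitted log2 fold change, knockdown against control, of the 5 tested members; filled points pass an edgeR adjusted p under 0.05, bars are 95% intervals, red crosses are fits without a library, blue ticks are other settings and the grey band is the middle 50% of all tested genes. Cxcl10 (0.94), Cxcl16 (0.66), Cxcl12 (-0.57) and the uncalled Cx3cl1 (-0.66) stay away from 0 in every fit drawn, and Ackr3 crosses it.

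The 3 called members of 5 tested compare with the 17.4% called over all tested genes, and the 3 members whose groups did not overlap with 34.9% over all tested genes. With 5 genes such shares are coarse. The median log2 fold change of the 5 was -0.18, and -0.01 over all tested genes. The other 5 had 0 or 1 count in all 6 libraries summed and were not tested.

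With Cxcl12 lower and Cxcl16 and Cxcl10 higher, the mix of transcripts differed between the groups while their sums overlapped. Summed over the members, the level was 22.3, 24.2 and 26.4 CPM in control and 24.7, 22.3 and 21.5 CPM in knockdown libraries. Cxcl12 made up 59.1%, 52.2% and 54.2% of the members' counts in control and 38.3%, 39.5% and 40.9% in knockdown libraries. Cxcl10 went the other way, from 7.83%, 10.9% and 8.31% to 19.1%, 16.7% and 19.8%, and so did Cxcl16, from 15.0% to 16.5% in control to 24.9% to 28.5% in knockdown libraries.

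**Figure D3:**
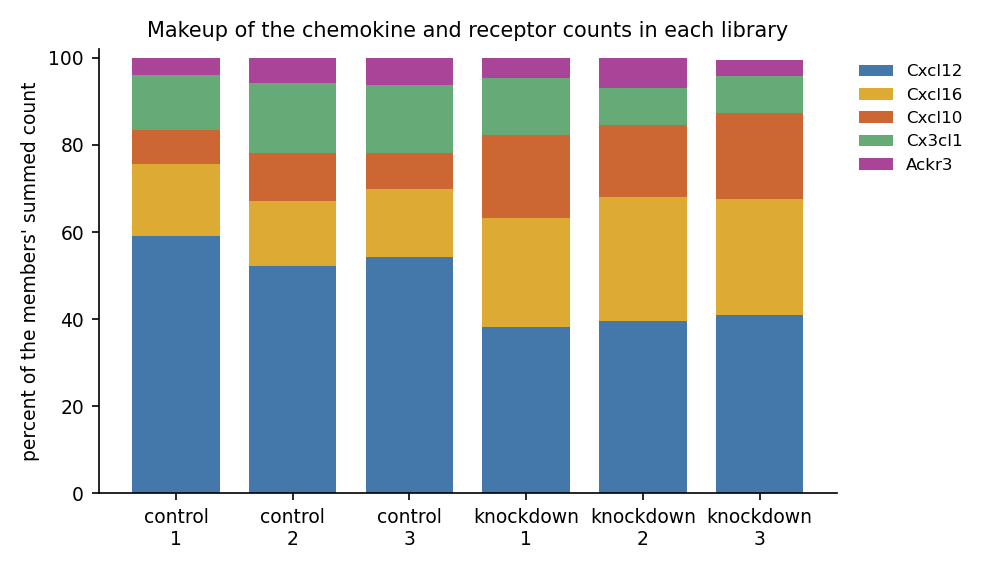
Share of the members' summed count held by each tested member, in percent, for each library; the lone Cxcl9 count of knockdown replicate 3 is not drawn. The Cxcl12 share is 52.2% to 59.1% in control and 38.3% to 40.9% in knockdown libraries.

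Ratios of counts within a library do not depend on how libraries are scaled. Cxcl12 had 3.58, 3.49 and 3.45 counts per Cxcl16 count in control and 1.54, 1.38 and 1.54 in knockdown libraries. This ratio had the smallest SD of those computed, at 3.51 ± 0.07 against 1.49 ± 0.09 (SD, n = 3). With 38 to 69 Cxcl16 counts per library, counting error alone exceeds that SD, so it does not measure the precision of the ratio. Cxcl12 to Cxcl10 was 7.56, 4.77 and 6.52 in control and 2, 2.37 and 2.06 in knockdown libraries, also without overlap. Separation of both ratios was set by the changes already given, as Cxcl12 fell and Cxcl16 and Cxcl10 rose without overlap. It is no further support for those changes. The membrane-bound pair, Cxcl16 to Cx3cl1, stood at 1.31, 0.93 and 1 in control and 1.92, 3.42 and 3.15 in knockdown libraries. These count ratios do not rank the pair, as their exon lengths differ. Per kilobase of exon, Cxcl16 stood above Cx3cl1 in every library of both groups. The ratio of Cxcl12 to its scavenger Ackr3 overlapped between groups, at 10.9 ± 3.60 and 8.19 ± 2.58 (SD, n = 3). Ratios show unequal change, not which gene moved.

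**Figure D4:**
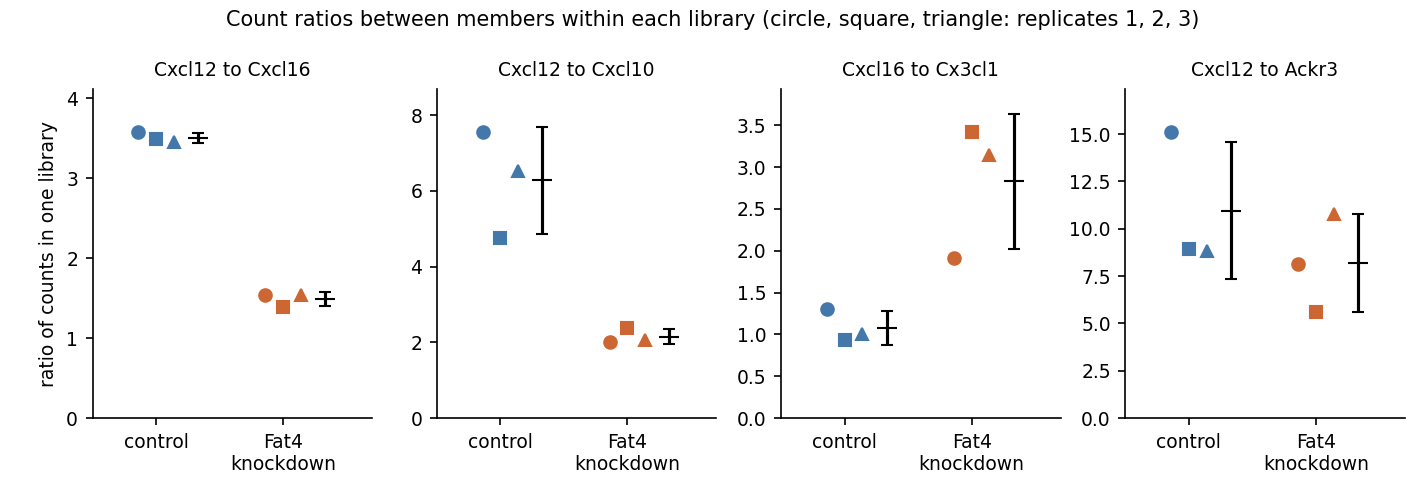
Ratio of counts of a pair of members within each library; points are libraries, and black bars give the mean and SD of 3. Groups separate for Cxcl12 to Cxcl16, Cxcl12 to Cxcl10 and Cxcl16 to Cx3cl1, and overlap for Cxcl12 to Ackr3. For Cxcl12 to Cxcl16 and Cxcl12 to Cxcl10 the separation follows from the changes of each gene.

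Levels of different genes are set side by side per kilobase of annotated exon, in CPM per kilobase. In control libraries Cxcl12 stood highest at 1.64 ± 0.11, then Cxcl16 at 1.26 ± 0.10, Cxcl10 at 0.98 ± 0.20, Cx3cl1 at 0.92 ± 0.18 and Ackr3 at 0.39 ± 0.12 (SD, n = 3). In knockdown libraries Cxcl16 (2.01 ± 0.11) and Cxcl10 (1.88 ± 0.22) stood above Cxcl12 (1.10 ± 0.05), with Cx3cl1 at 0.58 ± 0.20 and Ackr3 at 0.35 ± 0.11 (SD, n = 3). Neighbours in these orders whose libraries overlapped were Cxcl10 and Cx3cl1 in control, and Cxcl16 with Cxcl10 and Cx3cl1 with Ackr3 in knockdown libraries. The exon length in the table merges all isoforms, and for Cxcl10 it equals the whole gene span of 2252 bases. Per kilobase of the longest coding transcript (1353 bases for Cxcl10), Cxcl12 still led in control, at 2.38 ± 0.15, and lay below Cxcl10 and Cxcl16 in knockdown libraries, at 1.60 ± 0.07 (SD, n = 3). Cxcl10 then stood first in knockdown libraries, at 3.13 ± 0.37, ahead of Cxcl16 at 2.25 ± 0.12 (SD, n = 3), and in control libraries Cxcl10 (1.62 ± 0.33) likewise had a higher mean than Cxcl16 (1.42 ± 0.11; SD, n = 3), so the order of those 2 rests on the length used in both groups.

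Among 8056 other tested genes with a mean of at least 10 CPM and a regular symbol, the 3 whose profile over the 6 libraries was most like that of Cxcl12 were Efhd2, Rrs1 and Fhdc1. Likeness was the mean absolute difference of log2 values centred on each gene, which was 0.029, 0.038 and 0.038. Efhd2, a calcium-binding protein gene, was at 72.5 ± 2.99 CPM in control and 51.4 ± 3.45 CPM after knockdown (SD, n = 3). Rrs1, a ribosome assembly factor gene, was at 157.5 ± 3.96 and 108.3 ± 1.67 CPM (SD, n = 3).

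The gene lists here and below were written with earlier results of these data known, so their shares of called genes are descriptive only. Heparan sulfate is the surface sugar chain that holds CXCL12 and other chemokines in place. Of 17 tested genes for its synthesis, its core proteins and the enzymes that trim it, 7 fell and 0 rose (41.2%, beside 17.4% of all tested genes), with a median log2 fold change of -0.18 against -0.01 over all tested genes. Hs3st1, a sulfotransferase gene, stood at 42.8 ± 1.73 CPM in control and 27.1 ± 1.5 CPM after knockdown (SD, n = 3), a log2 fold change of -0.66 (edgeR adjusted p = 5.23e-05). The syndecan core protein gene Sdc2 (-0.34), the sulfotransferase gene Hs6st1 (-0.40) and Sulf1 (-0.43), whose product removes sulfate, were lower as well, Sulf1 not without knockdown replicate 2. The count was 4 with GC content and length correction and 4 by DESeq2. The calls of Ndst1, Ext2 and Extl3 held without a library only when control replicate 1 was left out. In the same libraries, 9 of 10 mesothelial marker genes were tested, 4 fell and 0 rose (44.4%, beside 17.4% of all tested genes). The summed level of the 10 was 1058 to 1149 CPM in control and 856 to 882 CPM in knockdown libraries. Of 10 fibroblast marker genes, 6 were tested, 2 rose and 1 fell (50%), and Lum and Tcf21 had no count. The summed level of these 10 was 2064 to 2149 CPM in control and 1630 to 1762 CPM in knockdown libraries. Most of that sum was Col1a1, which fell from 1964 ± 47.6 to 1513 ± 79.0 CPM (SD, n = 3), while the list's median log2 fold change over 6 tested genes was 0.22. By DESeq2, 3 mesothelial genes were lower, and 0 fibroblast genes were higher and 1 lower. Of the lower mesothelial genes, Wt1 was called in 0 of 6 fits without a library, and Lrrn4, Upk3b and Bnc1 in all 6. Of the higher fibroblast genes, Pdpn was called in 2 of those 6 fits and Thy1 in 4. The part of these marker shifts in the chemokine and heparan sulfate results was not tested.

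Genes for the proteases that cut or shed the ligands showed calls in both directions: 2 higher and 4 lower of 12 (50%, beside 17.4% of all tested genes), with a median of -0.14. The sheddase gene Adam10 stood at 150.2 ± 4.83 CPM in control and 131.8 ± 8.43 CPM after knockdown (SD, n = 3), a log2 fold change of -0.19 (edgeR adjusted p = 0.0489) whose call held without a library only when control replicate 1 was left out. Adam17, the inducible sheddase gene, was at 23.3 ± 2.53 and 22.3 ± 0.20 CPM (SD, n = 3), with an edgeR adjusted p of 0.629. Rhbdf2 (-0.47), which encodes an ADAM17 partner, and the matrix metalloproteinase genes Mmp14 (-0.43) and Mmp2 (-0.30) fell. Mmp2 was not called without control replicate 2 or knockdown replicate 2. The higher genes were Tspan15 (0.37), which encodes an ADAM10 partner, and the cathepsin gene Ctsl (0.17), and leaving out any library but control replicate 1 lost both calls. With library-size scaling 0 were higher and 5 lower, and DESeq2 had 1 higher and 3 lower. Dpp4, whose product trims CXCL10 and CXCL12, had 0 to 3 counts per library.

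Interferon and NF-kappaB signalling genes upstream of Cxcl10, inhibitors among them, were read by transcript level only. Whether these pathways were active was not tested. Of 17 genes with a test, 0 rose and 2 fell, with a median of -0.12. That is 11.8% called, beside 17.4% of all tested genes, of which 8.94% were higher and 8.44% lower. The feedback inhibitor gene Socs3 stood at 27.4 ± 0.65 CPM in control and 20.3 ± 1.0 CPM after knockdown (SD, n = 3), a log2 fold change of -0.43 (edgeR adjusted p = 0.00224) that was called in all 19 other fits. Ifnar1, the type I interferon receptor gene, was lower by edgeR (log2 fold change -0.23, adjusted p = 0.047), and without a library that held only when control replicate 1 was left out. Irf1, an interferon-induced transcription factor gene, was at 38.6 ± 0.62 CPM in control and 39.9 ± 1.82 CPM after knockdown (SD, n = 3, log2 fold change 0.05). The count of lower genes was 1 with GC content and length correction, 1 by DESeq2 and 3 with library-size scaling.

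Of 17 tested genes that carry or end the receptor signal, 0 rose and 1 fell (5.88%, beside 17.4% of all tested genes), with a median log2 fold change of -0.09, a range of -0.69 (Gng2, a G protein gamma subunit gene) to 0.57 (Elmo1, a partner of DOCK proteins), and 4 at an unadjusted p under 0.05. Gng2 and Elmo1 were not called. The called gene was Gnb2, a G protein beta subunit gene (log2 fold change -0.18, edgeR adjusted p = 0.0453), and GC content and length correction left 0. Without control replicate 1, 1 rose and 2 fell, and DESeq2 had 2 lower. Rac2 and Dock2, which are typical of blood cells, and Rgs1 and Rgs16 had no count. Of 8 hypoxia factor genes, Egln1 (-0.28) and Egln2 (-0.22), which encode oxygen-sensing hydroxylases, fell and 0 rose (25%, beside 17.4% of all tested genes), and GC content and length correction left 0. Egln1 was not called without control replicate 3, Egln2 without any library but control replicate 1, and DESeq2 called 1 of them. Hif1a was at 59.1 ± 4.20 and 56.2 ± 1.59 CPM (SD, n = 3, log2 fold change -0.07).

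**Figure D5:**
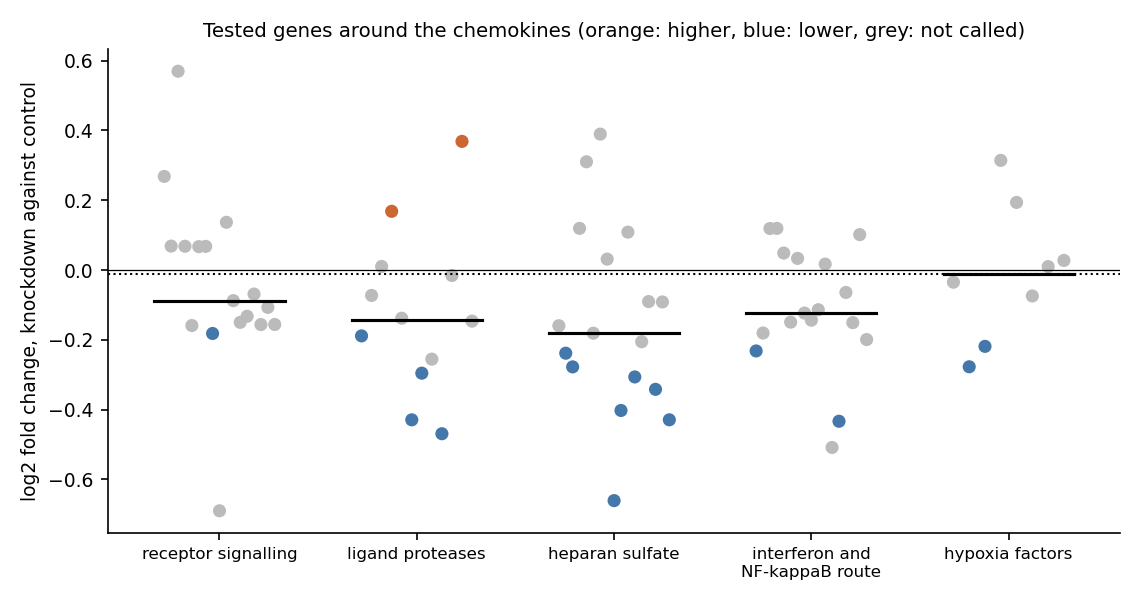
Log2 fold change of each tested gene in 5 lists around the chemokines; orange genes rose, blue genes fell, grey genes were not called, black lines are list medians and the dotted line is the median of all tested genes. The heparan sulfate list has 7 blue points and 0 orange, and the interferon and NF-kappaB route has 2 blue and 0 orange.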

How the data were processed

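RNA from 3 control and 3 Fat4 knockdown MCEC samples was sequenced as tagmented cDNA, per the labels' protocols. Per the submitters' processing notes, the build was GRCm39 and the tools named are STAR 2.7.11, fastp 0.24.0, SAMtools 1.22.1, FastQC 0.12.1 and MultiQC 1.32. How genes were counted, with which annotation and strand setting, is not stated in the labels. The deposited table gives estimated counts per gene, 29.0% of the nonzero values not whole (tolerance 1e-06). Its deposited CPM values are counts over the library total and were not used.

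Counts were rounded, 92 spike-in rows left out, and genes passing filterByExpr were tested, with TMM scaling, in edgeR 4.0.16 in R 4.3.3 (glmQLFit with robust moderation, glmQLFTest), adjusted by Benjamini-Hochberg over all 13372 tested genes and called under 0.05. CPM values use TMM-scaled library sizes. The SE is the log2 fold change over the square root of F, and 95% intervals use the moderated degrees of freedom. A count of 0 allows 3 counts. The totals of 10305810 to 11870091 counts set this precision. Replicates all differed by more than sampling noise (chi-square over df 2.43 to 9.10). The workflow was tested on simulated counts.

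The members and gene lists were chosen with earlier results of these data known. All members are named, and of each other list at most 4 called genes in order of adjusted p, besides genes named for their role or because their call was lost. Neighbours within 50000 bases were taken by position. Alternatives were scaling by RLE, upper quartile or library size, DESeq2 1.42.0, limma-voom (limma 3.58.1), other filters, rounding down, a replicate block, correction for GC content and length (mgcv 1.9.3 trends as offsets; GC from a GRCm38 annotation, 95.6% of tested genes) and each library left out. Settings chosen after seeing the data were protein-coding rows only, no robust moderation, another gene length, and the NF-kappaB consensus and GC box searches.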

Additional observations from a re-analysis of the deposited data

How the results depend on the processing

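Cxcl10 and Cxcl12 kept their direction and their call in every setting that could test them, 18 and 19 in number, with log2 fold changes of 0.82 to 1.09 and -0.63 to -0.50. Cxcl16 kept its direction in 18 settings (0.61 to 0.73) and its call in 17. Cx3cl1, not called in the main fit, also kept its direction in 18 settings (-0.99 to -0.51), and 4 of them called it. The count of higher members was 1 with DESeq2, which did not call Cxcl16, and 0 when at least 10 CPM was required, which left only Cxcl12 to test. The count of lower members was 2 with library-size scaling and 2 with no filter, the addition being Cx3cl1, and ran from 1 to 2 over the fits without a library. Ackr3 turned positive without control replicate 3 (0.0205) and without knockdown replicate 3 (0.0336), a range of -0.42 to 0.03 over the libraries left out; the cause was not tested, and DESeq2 gave it no adjusted p.

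Over all genes 2324 were called, with 1443 by DESeq2, 1341 with a replicate block together with GC content and length correction, and between 1029 and 3077 when a library was left out, the ends being those without control replicates 2 and 1. The replicate block alone called 2001 genes and changed no member's call. Deviations of same-numbered libraries correlated at -0.201, -0.161 and 0.139, and those of the other pairs at -0.202 to 0.267. Taken within groups of 3, such values cannot tell whether same-numbered libraries were handled together. Counts of 9 to 20 per library give Ackr3 an interval of -0.86 to 0.51.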
